A study of Mus musculus with 21 samples.

Results

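The genes described here are 42 genes of mitosis, chosen by function from a list of spindle, kinetochore, checkpoint, cytokinesis and condensin genes. All 42 are rows of the deposited count table, which holds 30733 genes and 21 libraries. Every member had at least 10 counts in every library and was tested in every comparison. RNA came from mouse bone marrow that had been depleted of lineage-positive cells and sorted into 3 populations. The LSK gate (lineage-negative, Sca-1 and Kit positive) holds stem cells and multipotent progenitors. GMP give rise to neutrophils and monocytes, and CFU-E are late progenitors of red cells. Per the labels, each population was taken from Stag2 knockout (KO) and Stag2 wild-type (WT) cells: LSK with 3 KO and 4 WT libraries, and GMP and CFU-E with 4 KO and 3 WT libraries each. No treatment is named for any group. The promoter or Cre that drove the deletion, the deleted part of the gene, the strain, and the age and sex of the mice are not stated in the labels used here, nor is it stated that the numbered replicates came from separate mice. Each p-value therefore rests on library-to-library spread, part of which could be technical.

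Mitosis separates the copied chromosomes into 2 daughter cells. Cyclins A and B activate the kinase Cdk1, condensin compacts each chromosome into paired sister chromatids, and kinetochores built on the centromeres attach the chromatids to spindle microtubules. The spindle checkpoint holds the cell until every kinetochore is attached. The anaphase-promoting complex with its activator Cdc20 then frees separase, the protease that cuts the cohesin ring holding the sisters together, and the central spindle and an actin ring divide the cell. Stag2 encodes a subunit of cohesin, which links these genes to the knockout as background: its ring is what separase opens. Most mitotic genes are transcribed in G2 and M phase and are silenced in quiescent cells, so their summed RNA in bulk cells is used as a gauge of proliferation. In bulk RNA a smaller share of cells in mitosis and less mitotic RNA per cell cannot be told apart.

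Promoters of mitotic genes are known for a pair of short elements, the cell cycle genes homology region (CHR) and the CCAAT box, which binds the factor NF-Y. The RefSeq promoter table (GRCm38.p6, 250 bases before to 50 after each start) held 37 promoters of 35 members. Ccna2, Aurkb, Incenp, Tpx2, Dlgap5, Kif20a and Smc4 had none there. The CHR was searched as TTTGAA or TTCGAA and the CCAAT box as CCAAT, each on both strands, and neighbouring matches may overlap. A CHR match lay in 29 of the 37 member promoters (78.4%), against 19.2% of the 32851 promoters in the table. A CCAAT match lay in 27 (73.0%, against 37.4%), and both motifs lay in 25 (67.6%, against 7.52%). The 250 bases before the start are printed for 5 members, 5′ to 3′ on the gene's strand, with both motifs in capitals: Espl1 and Ccnb1, which were higher in WT CFU-E than in WT GMP, Ube2c and Kif23, which were lower, and Kif11, which passed no test.
Espl1, chr15:102296043-102296292, plus strand, GRCm38.p6: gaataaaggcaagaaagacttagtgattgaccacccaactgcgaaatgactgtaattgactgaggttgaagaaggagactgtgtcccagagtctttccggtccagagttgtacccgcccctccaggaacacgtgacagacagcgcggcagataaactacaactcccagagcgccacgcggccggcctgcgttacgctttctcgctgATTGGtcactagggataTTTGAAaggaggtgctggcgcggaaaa
Ccnb1, chr13:100786487-100786736, minus strand, GRCm38.p6: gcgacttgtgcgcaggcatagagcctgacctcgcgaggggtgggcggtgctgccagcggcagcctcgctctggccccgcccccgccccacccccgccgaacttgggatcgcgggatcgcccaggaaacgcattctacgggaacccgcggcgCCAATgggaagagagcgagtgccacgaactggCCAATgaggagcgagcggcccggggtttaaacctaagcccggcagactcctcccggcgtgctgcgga
Ube2c, chr2:164769679-164769928, plus strand, GRCm38.p6: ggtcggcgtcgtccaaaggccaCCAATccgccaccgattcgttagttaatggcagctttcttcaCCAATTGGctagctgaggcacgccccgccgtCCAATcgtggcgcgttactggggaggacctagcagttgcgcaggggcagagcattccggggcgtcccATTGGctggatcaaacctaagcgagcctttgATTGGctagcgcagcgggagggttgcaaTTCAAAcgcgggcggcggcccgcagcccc
Kif23, chr9:61946800-61947049, minus strand, GRCm38.p6: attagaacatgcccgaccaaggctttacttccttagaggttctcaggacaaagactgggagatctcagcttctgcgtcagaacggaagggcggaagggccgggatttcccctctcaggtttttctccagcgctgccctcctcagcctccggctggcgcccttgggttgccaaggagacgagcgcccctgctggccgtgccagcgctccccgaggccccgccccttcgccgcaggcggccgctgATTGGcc
Kif11, chr19:37376132-37376381, plus strand, GRCm38.p6: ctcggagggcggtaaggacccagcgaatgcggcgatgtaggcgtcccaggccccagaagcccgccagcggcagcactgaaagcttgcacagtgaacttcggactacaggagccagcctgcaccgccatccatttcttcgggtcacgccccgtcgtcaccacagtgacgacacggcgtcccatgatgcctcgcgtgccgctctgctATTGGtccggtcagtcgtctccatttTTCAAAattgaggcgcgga
Espl1 has a CHR match whose first base lies 27 bases before the start, with a CCAAT match (ATTGG on this strand) 44 bases before it. Kif11 shows the same pair at 19 and 45 bases. Ube2c has 1 CHR match at 29 bases and 6 CCAAT matches between 57 and 228 bases before the start. Ccnb1 has no CHR match and CCAAT matches at 67 and 99 bases, and Kif23 has 1 CCAAT match at 7 bases in these 250. Kif23 also has 1 CHR match in the 300 bases counted above, but not within the 250 printed. The 5 printed promoters, of genes that were higher, lower and not called, thus hold overlapping sets of matches. A match is a run of letters and not a measured binding site.

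Stag2 itself was lower in the KO libraries of LSK and CFU-E. In LSK it stood at 187, 171, 148 and 158 CPM (counts scaled to library size, with TMM factors) in the WT libraries and 79.9, 67.8 and 69.2 in the KO, a log2 fold change of -1.20 ± 0.13 (adjusted p = 0.027). CFU-E gave 122, 113 and 146 CPM in WT and 65.5, 37.5, 61.0 and 68.4 in KO (-1.13 ± 0.20 (adjusted p = 0.0143)). The groups did not overlap in either population. In GMP the WT values 226, 165 and 113 and the KO values 101, 109.7, 88.6 and 154 overlapped, and the change of -0.47 ± 0.27 did not pass (adjusted p = 0.36). With per-gene offsets for GC content and length, an alternative chosen after seeing the data, it was -0.91 ± 0.16 (adjusted p = 0.0112). Where the deletion lies is not given. GMP and CFU-E were both counted at the 3′ end, and how far a 3′ count reports the deletion was not tested in either. The LSK call was lost without WT 3, WT 4, WT 2 and WT 4 together, or any 1 KO library (adjusted p = 0.0657 to 0.151), and the CFU-E call without WT 3 (0.703) or within flow cell A, which has 1 KO library (0.0518); the direction was the same in each.

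LSK libraries held 22813333 to 32196233 counts, GMP 1250683 to 4401993 and CFU-E 3654667 to 5550165. The 42 members took 0.486 to 0.797% of all counts in LSK. In GMP they took 0.542 to 0.825% in WT and 0.707 to 0.951% in KO. In CFU-E they took 0.917 to 1.05% in WT and 0.879 to 1.06% in KO. LSK were amplified over full transcripts and GMP and CFU-E at the 3′ end, so LSK levels were not set against the others. Between WT GMP and WT CFU-E the defining markers followed the sort. All 8 GMP markers (Mpo, Elane and Prtn3 among them) were lower in CFU-E. All 9 erythroid markers (Gata1, Klf1 and Epor among them) were higher there. In the LSK libraries the 9 LSK markers summed to 2040 to 2992 CPM and the 8 GMP markers to 5790 to 18513. In the GMP WT libraries the GMP markers summed to 36750 to 62439 CPM and late neutrophil markers to 176031 to 237858.

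After TMM scaling, WT CFU-E and WT GMP carried similar levels of most mitotic genes. Of the 42 members, 5 were higher in CFU-E (Ccna2, Ccnb1, Espl1, Smc2 and Ncaph), 3 were lower (Kif23, Racgap1 and Ube2c) and 34 were not called by edgeR's quasi-likelihood test at an adjusted p under 0.05. Of the 10329 genes tested, 52.4% were called, 25.0% higher and 27.3% lower, so the members' 8 of 42 (19.0%) lies below that background. DESeq2 also called 5 higher and 3 lower. Without overlap between the groups, 5 members stood higher (31.4% of all genes did) and 4 lower (28.8%). The median log2 fold change was 0.00 over the members and 0.03 over all genes. The median size of the difference, whatever its direction, was 0.16 for the members and 0.71 for all genes. In 36 members (85.7%) the point estimate lay within 1.5-fold, against 43.3% of all genes. The 95% interval lay within 2-fold in 33 members and within 1.5-fold in 15, so in the other 27 the interval also holds differences larger than 1.5-fold.

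**Figure D1:**
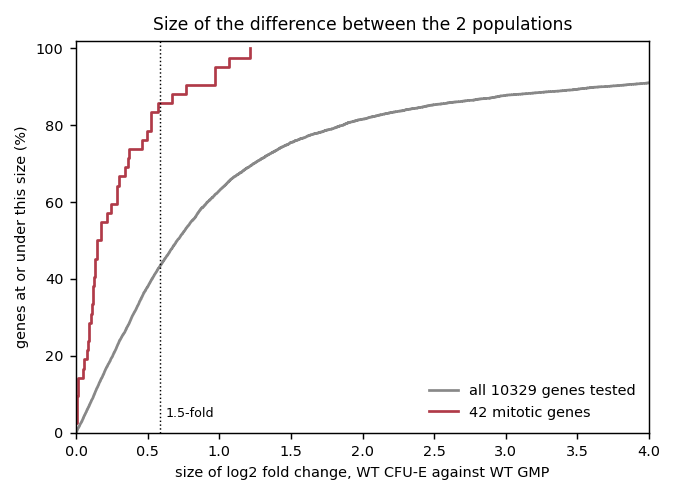
Share of genes (vertical axis, %) whose log2 fold change between WT CFU-E and WT GMP is at or under the size on the horizontal axis, for the 42 mitotic genes (red) and all 10329 genes tested (grey). The dotted line marks 1.5-fold, where 85.7% of the mitotic genes and 43.3% of all genes lie at or under it.

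The summed TMM-scaled level of the 42 genes was 8243 ± 1375 CPM (SD, n = 3) in WT GMP and 8973 ± 686 CPM (n = 3) in WT CFU-E, and the libraries' ranges, 6848 to 9597 and 8424 to 9742, overlapped. As a share of all counts, without TMM scaling, the ranges did not overlap (0.542 to 0.825% in WT GMP and 0.917 to 1.05% in WT CFU-E). Markers of other cells differed much more between these libraries. The 8 late neutrophil markers were all lower in CFU-E, summing to 176031 to 237858 CPM in the GMP WT libraries and 263 to 517 in the CFU-E WT libraries, with none at 0 in every library of a group. All 6 monocyte and macrophage markers were lower too, at 3408 to 4213 CPM against 12.6 to 14.5. The part of these cells or transcripts in the members' differences was not tested.

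**Figure D2:**
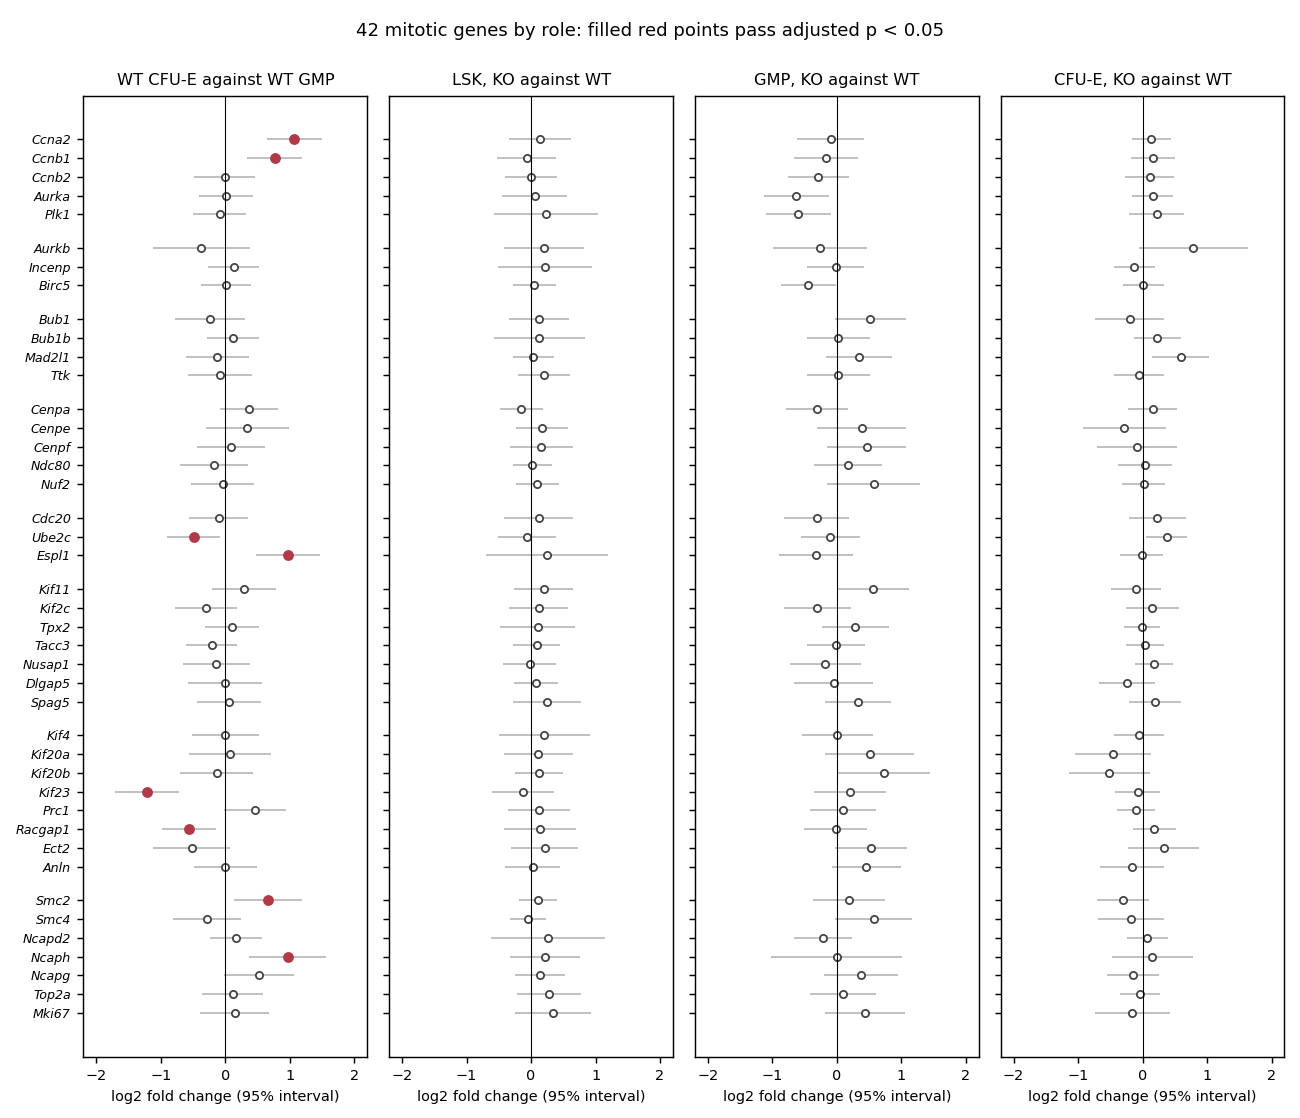
Log2 fold change (horizontal axis) of each of the 42 genes with its 95% interval, ordered by role, in WT CFU-E against WT GMP and in KO against WT of each population. Filled red points are the 8 members called between the WT populations; no point is filled in the 3 KO panels.

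Among the cyclins and entry kinases, both cyclins that were called rose. Ccna2 encodes cyclin A2, which acts in S phase and at entry into mitosis. Its level was 86.1, 119 and 84.0 CPM in the GMP WT libraries and 217, 214 and 190.3 in the CFU-E WT libraries. Every CFU-E library stood above every GMP library, with a log2 fold change of 1.07 ± 0.20 (adjusted p = 0.000155). Ccnb1 encodes cyclin B1, the main partner of Cdk1 in mitosis. It went from 79.0, 89.9 and 62.1 CPM in GMP to 135, 138 and 129 in CFU-E, again without overlap (0.76 ± 0.20 (adjusted p = 0.00365)). The closely related Ccnb2 gave 104, 94.2 and 68.8 and 84.1, 112 and 75.9 CPM, overlapping values with a log2 fold change of -0.01 ± 0.23. The centrosome kinase Aurka and the polo kinase Plk1 were at 0.01 ± 0.20 and -0.09 ± 0.20, with 95% intervals of -0.41 to 0.43 and -0.50 to 0.32.

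No member of the chromosomal passenger complex, the spindle checkpoint or the kinetochore was called between the WT populations. Incenp and Birc5, the scaffold of the passenger complex and its survivin subunit, were at 0.13 ± 0.19 and 0.01 ± 0.19. Their kinase Aurkb was the most variable of the complex, at 14.8, 34.7 and 32.3 CPM in GMP and 32.7, 21.7 and 9.39 in CFU-E, and its interval of -1.13 to 0.39 spans 2-fold lower. The 4 checkpoint genes Bub1, Bub1b, Mad2l1 and Ttk ranged from -0.24 (Bub1) to 0.12 (Bub1b). The 5 centromere and kinetochore genes ranged from -0.17 for Ndc80, a microtubule-binding subunit, to 0.36 for Cenpa, the histone H3 variant of centromeres. Cenpa stood at 140.3, 246 and 219 CPM in GMP and 304, 263 and 228 in CFU-E, where 1 GMP library lay within the CFU-E range.

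The anaphase genes moved in opposite directions. Espl1, which encodes separase, was at 18.5, 29.1 and 31.9 CPM in the GMP WT libraries and 51.2, 52.2 and 55.9 in the CFU-E WT libraries. The CFU-E values were close to each other and all above GMP, at a log2 fold change of 0.97 ± 0.24 (adjusted p = 0.00167). Ube2c, the ubiquitin-conjugating enzyme that works with the anaphase-promoting complex, was at 159, 212 and 203 CPM in GMP and 133, 155 and 129 in CFU-E. All CFU-E values were below all GMP values, by a narrow margin, with a change of -0.49 ± 0.20 (adjusted p = 0.04). Cdc20 did not pass (-0.11 ± 0.22 (adjusted p = 0.712)).

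**Figure D3:**
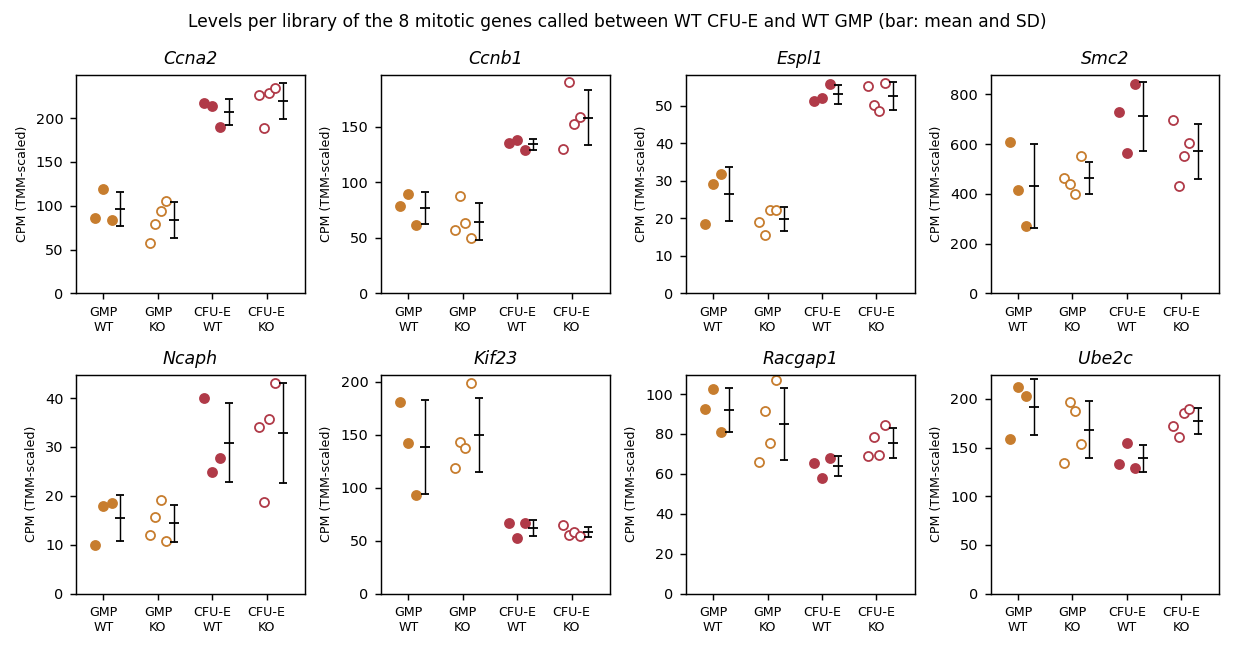
CPM (vertical axes, from 0) of the 8 called genes in each GMP (orange) and CFU-E (red) library, WT filled and KO open, with the mean and SD of each group. In Ccna2, Ccnb1, Espl1 and Ncaph every CFU-E WT point lies above every GMP WT point, and in Kif23, Racgap1 and Ube2c every one lies below.

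The genes of the central spindle held the largest fall. Kif23 and Racgap1 encode the 2 subunits of centralspindlin, the kinesin and GTPase-activating protein that bundle the central spindle and place the division ring. Kif23 was at 181, 142 and 92.8 CPM in GMP and 66.5, 52.9 and 66.7 in CFU-E, with a log2 fold change of -1.21 ± 0.24 (adjusted p = 0.000223). Racgap1 was at 92.5, 103 and 80.9 and 65.6, 58.2 and 67.7 CPM, a change of -0.57 ± 0.20 (adjusted p = 0.0221). Neither gene's groups overlapped. Ect2, the exchange factor that centralspindlin recruits, was measured at 24.8, 31.1 and 15.8 CPM in GMP and 19.3, 18.0 and 13.8 in CFU-E and did not pass (-0.52 ± 0.29 (adjusted p = 0.135)); with GC and length offsets it did (-0.62 ± 0.24, adjusted p = 0.0389). Prc1, which crosslinks the central spindle's microtubules, had no overlap between the groups, with 127, 132 and 70.0 CPM in GMP and 159, 145 and 162 in CFU-E, but did not pass either (0.46 ± 0.23 (adjusted p = 0.101); 0.0352 without GMP WT 1). The other 4 members of this group (Kif4, Kif20a, Kif20b and the actin ring scaffold Anln) lay between -0.13 and 0.07. None of the 7 spindle motors and microtubule-binding proteins was called, from -0.30 for the microtubule depolymerase Kif2c to 0.28 for Kif11, the motor that pushes the spindle poles apart.

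Of the condensin I subunits, 2 of 5 were higher in CFU-E. Ncaph, the kleisin that closes the condensin I ring, was at 10.04, 17.8 and 18.6 CPM in GMP and 40.1, 24.8 and 27.7 in CFU-E without overlap (0.97 ± 0.29 (adjusted p = 0.00765)). Smc2, one of the ATPase arms shared by both condensins, was at 609, 417 and 271 CPM in GMP and 728, 564 and 841 in CFU-E. Its groups overlapped through GMP WT 1, and the change was 0.67 ± 0.25 (adjusted p = 0.0319). The other arm, Smc4, gave 1223, 792 and 563 and 710.0, 577 and 902 CPM and did not pass (-0.29 ± 0.25 (adjusted p = 0.354)). Ncapg and Ncapd2 were at 0.52 ± 0.26 and 0.17 ± 0.19 and did not pass, although Ncapg did with GC and length offsets (0.44 ± 0.17, adjusted p = 0.0354). The 3 subunits particular to condensin II, Ncapd3, Ncapg2 and Ncaph2, are not members and were not called, at 0.02 ± 0.24, 0.03 ± 0.30 and -0.06 ± 0.21. Top2a, the topoisomerase of mitotic chromosomes, and Mki67, which coats their surface, were at 0.12 ± 0.23 and 0.14 ± 0.26.

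Leaving out GMP WT 1 raised the number of members called higher to 8, and leaving out CFU-E WT 1 lowered it to 3. The number called lower was 5 without GMP WT 3, and 1 without GMP WT 2, CFU-E WT 1 or CFU-E WT 3. The calls for Ccna2, Ccnb1, Espl1 and Kif23 passed in every alternative run. Those for Ncaph, Racgap1, Smc2 and Ube2c did not. Ncaph lost its call without CFU-E WT 1 (adjusted p = 0.0577). Smc2 lost it without GMP WT 2 (0.106), GMP WT 3 (0.123), CFU-E WT 1 (0.0631) or CFU-E WT 3 (0.117), Racgap1 without GMP WT 2 (0.0998), any 1 CFU-E WT library (0.0562 to 0.102) or the filter on low counts (0.0561), and Ube2c without GMP WT 2 (0.150), CFU-E WT 1 (0.141), CFU-E WT 3 (0.164) or the filter (0.0893) and in the fit over 14 libraries with a flow cell term (0.0791).

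A wider list of 82 further mitotic genes also held calls in both directions. Of the 78 tested, 12 were higher and 6 lower in WT CFU-E (23.1% called, against 52.4% of all genes). The median log2 fold change of the 78 was 0.06. By smallest p the higher ones were led by Aspm, a spindle pole protein (1.21 ± 0.26 (adjusted p = 0.000565)), Zwint, a kinetochore protein (0.74 ± 0.22 (adjusted p = 0.00642)), Oip5, which loads Cenpa (0.86 ± 0.27 (adjusted p = 0.0116)), and Sgol1, shugoshin, which protects centromeric cohesin (0.70 ± 0.22 (adjusted p = 0.012)). Those lower were led by Fam64a, which was almost absent from CFU-E at 1.47, 1.94 and 1.73 CPM against 23.5, 39.3 and 36.8 in GMP (-4.27 ± 0.35 (adjusted p = 1.5e-09)). Cep55, the organiser of the final cut between daughter cells, stood at 1.45 ± 1.47 CPM (SD, n = 3) against 20.7 ± 5.78 (-3.85 ± 0.47 (adjusted p = 7.37e-07)). Next came Sgol2, the second shugoshin (-1.33 ± 0.32 (adjusted p = 0.00149)), and the Ndc80 complex subunit Spc24 (-0.82 ± 0.19 (adjusted p = 0.00117)). Without CFU-E WT 2 the call for Oip5 was lost (adjusted p = 0.0682).

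DNA replication genes, listed for contrast, were called more often in 1 direction: 10 of 25 were higher in CFU-E and 1 was lower, with a median of 0.40. Calls made up 44% of this list, against 52.4% of all genes tested (25.0% higher and 27.3% lower). The largest rise was in Ccne1, the cyclin E1 of entry into S phase, with 16.4, 29.4 and 21.6 CPM in GMP and 204, 236 and 171 in CFU-E (3.15 ± 0.25 (adjusted p = 7.74e-10)). Cdc6, which loads the replicative helicase, followed with 83.5, 91.8 and 105 and 298, 284 and 269.7 CPM (1.57 ± 0.19 (adjusted p = 6.66e-07)). The ribonucleotide reductase subunit Rrm1 rose by 0.87 ± 0.19 (adjusted p = 0.000521) and the replication factor Mcm10 by 0.93 ± 0.20 (adjusted p = 0.000673). The helicase cofactor Cdc45 was the one that fell (-0.66 ± 0.21 (adjusted p = 0.0103)), a call lost without GMP WT 2 (0.0506) or CFU-E WT 3 (0.0537). The difference between the replication and mitotic lists was not tested.

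In LSK cells no mitotic gene was called between KO and WT. The count was 0 of 42 by edgeR's quasi-likelihood test, 0 at an unadjusted p under 0.05, and 0 by DESeq2. Of all 17664 genes tested, 0.0793% were called and 7.88% had an unadjusted p under 0.05, so few calls are made in this comparison for any gene. Point estimates were positive for 35 members and negative for 7, with a median of 0.12 against 0.00 over all genes. All lay within 1.5-fold, and the 95% interval lay within 2-fold in 39 members.

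By role, the condensin and chromosome genes had the highest median in LSK (0.22, 6 of 7 positive). The highest member was Mki67, at 282, 136, 205 and 135 CPM in WT and 223, 219 and 275 in KO (0.34 ± 0.26 (adjusted p = 0.863)). The KO values lay inside the WT range. At the other end stood Cenpa, with 166, 126, 125 and 131 CPM in WT and 111, 119 and 141 in KO (-0.15 ± 0.15 (adjusted p = 0.886)). The checkpoint genes, the passenger complex and the group of cyclins and entry kinases had positive medians of 0.13, 0.20 and 0.06. In the last group 3 of 5 genes were positive. Separase (Espl1) was the least precise, at 134, 40.5, 74.9 and 37.4 CPM in WT and 65.6, 94.3 and 95.5 in KO. The WT libraries spanned every KO value. Its estimate was 0.25 ± 0.41, with an interval of -0.69 to 1.19. Among the other mitotic genes 0 of 82 were called, and among the replication genes 0 of 25.

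Mitotic gene levels differed between LSK libraries of one genotype. LSK WT 1 was the highest of the 7 libraries for 36 of the 42 members, against 18.4% of all genes, and all 42 members were above their mean there. LSK WT 2 was the lowest for 26 members, against 19.1% of all genes. The median deviation of the members from their mean over the 7 libraries (log2 of CPM + 1) was 0.44 in WT 1, -0.33 in WT 2, -0.05 in WT 3 and -0.26 in WT 4. In the KO libraries it was 0.04, -0.09 and 0.27. WT 2 and WT 4 also had the highest late neutrophil marker sums, 8608 and 4586 CPM against 365 to 1742 in the other 5 LSK libraries. Their monocyte and macrophage sums were also the highest (2500 and 1794 CPM against 516 to 1123), as were their B cell sums (236.6 and 179 against 62.7 to 163). Other lists differed in this order. The T and NK cell sum was highest in WT 4 (643 CPM), but WT 2 (462) lay below WT 3 (473). The GMP marker sum was highest in WT 3 (18513 CPM). Over genotypes, all 8 late neutrophil, 6 monocyte and macrophage, 7 B cell and 6 T and NK cell markers had lower point estimates in KO (medians of -1.82, -1.16, -1.93 and -0.61), with none called and none at 0 in any LSK library. Their part in the members' values was not tested. Without WT 1 the members' median log2 fold change rose to 0.32, and without both WT 2 and WT 4 it was -0.10, so its sign depends on which WT libraries enter. Neither fit called a member.

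**Figure D4:**
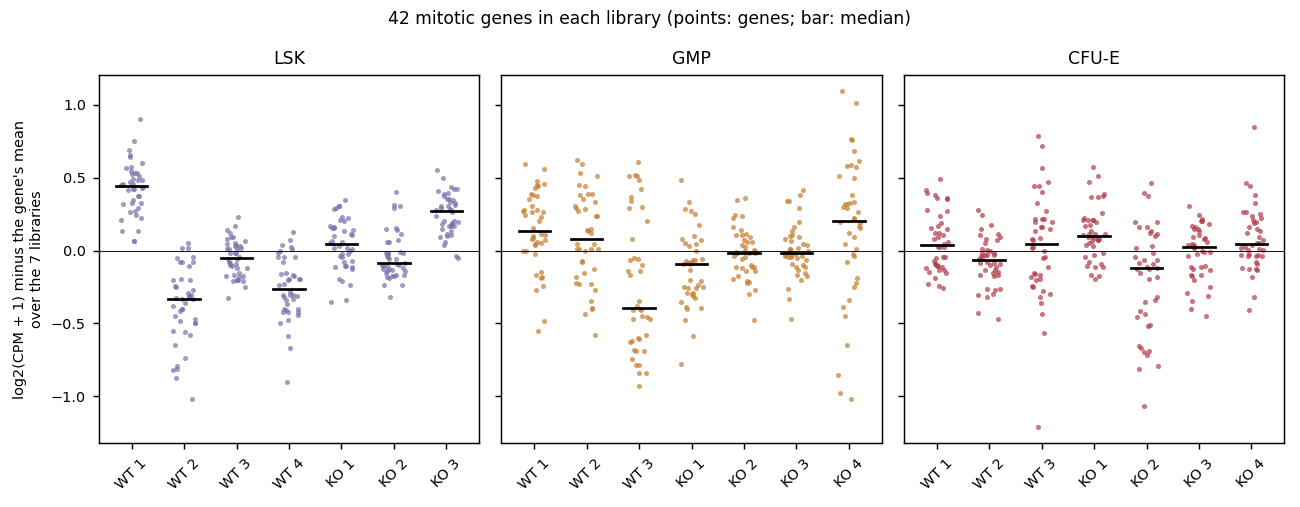
Deviation of each of the 42 genes (points) from its own mean over the 7 libraries of a population, as log2(CPM + 1), with the median (bar), for LSK, GMP and CFU-E. The WT libraries of LSK spread from a median of -0.33 (WT 2) to 0.44 (WT 1), and GMP WT 3 lies lowest in GMP (-0.39).

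In GMP, too, no mitotic gene passed between KO and WT: 0 of 42 by edgeR's quasi-likelihood test and 0 by DESeq2, where 1.45% of all 9969 genes were called. At an unadjusted p under 0.05 there were 5 members (11.9%) against 17.9% of all genes. Signs were split, 23 positive and 19 negative, with a median of 0.02 (all genes 0.02). Without GMP WT 1 the median was 0.25. The summed level was 8179 ± 933 CPM (SD, n = 4) in KO and 8243 ± 1375 (n = 3) in WT. The 95% interval lay within 2-fold in 29 members.

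In 3 members all KO libraries stood below all WT libraries. Aurka, a kinase of the spindle poles, gave 114, 168 and 170.4 CPM in WT and 90.5, 110.0, 107 and 61.2 in KO (-0.63 ± 0.24 (adjusted p = 0.196)). Plk1 gave 398, 453 and 473 and 348, 285, 306 and 168 CPM (-0.60 ± 0.24 (adjusted p = 0.215)), and Birc5 722, 768 and 737 and 431, 525, 534 and 568 CPM (-0.44 ± 0.20 (adjusted p = 0.272)). The same separation downward was found in 11.2% of all genes, and 3 of 42 members is 7.14%. No member separated upward, as 5.54% of all genes did. The motor Kif11 had 79.0, 67.1 and 40.5 CPM in WT and 69.0, 86.5, 84.1 and 105 in KO, overlapping values (0.56 ± 0.26 (adjusted p = 0.267)). Kif20b, a kinesin of late mitosis, had 199, 108 and 93.1 and 155, 165, 160.0 and 345 CPM, where KO 4 stood far above the others (0.73 ± 0.34 (adjusted p = 0.27)).

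By role in GMP, all 5 cyclins and entry kinases, all 3 passenger complex genes and all 3 anaphase genes had negative estimates. All 4 checkpoint genes, 4 of 5 kinetochore genes, 7 of 8 central spindle genes and 5 of 7 condensin and chromosome genes had positive ones, and the 7 spindle motors and microtubule-binding proteins were mixed (3 positive and 4 negative). Values ran from -0.63 ± 0.24 (Aurka) to 0.73 ± 0.34 (Kif20b), with Smc4 at 0.57 ± 0.28, Nuf2 at 0.57 ± 0.34 and Bub1 at 0.52 ± 0.26 also high, none of them past the threshold.

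Base composition moved with these estimates. The GC content of the longest annotated transcript (GENCODE M21) runs from 39.4% in Kif20b to 56.1% in Espl1. Across the 42 members, Spearman's rho between GC content and the GMP log2 fold change was -0.69, and with transcript length it was 0.56. Over all genes these were -0.38 and 0.20. The points share the same 7 libraries, and these are descriptions with no test. With per-gene offsets for GC content and length, added after seeing the data, rho with GC content among the members fell to -0.20, the median size of their changes went from 0.29 to 0.17, and the interval lay within 2-fold in 41 of 42. Such offsets take out each library's trend with GC content and length over all genes, including any part that the genotype itself carries. No member was called with them (smallest adjusted p = 0.123, for Birc5). The division of signs by role held only in part with the offsets. The cyclins and entry kinases all stayed negative, from -0.49 (Aurka) to -0.18 (Ccna2). The kinetochore genes except Cenpa (-0.34) and the central spindle genes except Kif4 (-0.08) were positive. Incenp (0.19) and Ube2c (0.17) turned positive, and the checkpoint genes Mad2l1 (-0.12) and Ttk (-0.14) turned negative.

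**Figure D5:**
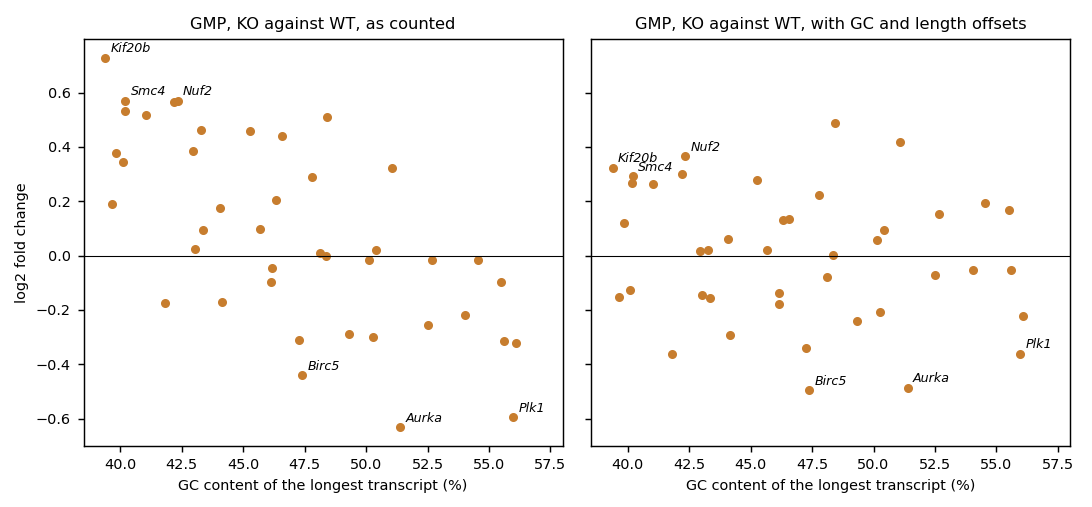
Log2 fold change of KO against WT in GMP (vertical axis) by GC content of the longest transcript (horizontal axis, %) for the 42 genes, as counted (left) and with GC and length offsets (right). The downward slope on the left (rho -0.69) is flatter on the right (rho -0.20).

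Depth and other cells also moved with genotype in GMP. The KO libraries held 1250683 to 3471881 counts and the WT libraries 3732769 to 4401993, so depth and genotype cannot be told apart. All 8 late neutrophil markers had lower estimates in KO, 1 of them called, and summed to 76736 to 135521 CPM in KO against 176031 to 237858 in WT. All 6 monocyte and macrophage markers had lower estimates in KO, 2 of them called, with sums of 1524 to 2157 against 3408 to 4213 CPM. No marker of either list was at 0 in any GMP library, and their part in the members' values was not tested. GMP WT 3 was the lowest of the 7 libraries for 22 of the 42 members, against 21.7% of all genes. GMP KO 4 was the highest for 15 members and the lowest for 6, against 24.7% and 32.3% of all genes.

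In CFU-E the count was again 0 of 42 by edgeR's quasi-likelihood test with a flow cell term and 0 by DESeq2, against 1.06% of 10170 genes. At an unadjusted p under 0.05 there were 2 members (4.76%) against 9.82% of all genes. The signs were 22 positive and 20 negative, with a median of 0.01 (all genes 0.00). The interval lay within 2-fold in 38 members and within 1.5-fold in 23. The summed level was 8848 ± 480 CPM (SD, n = 4) in KO and 8973 ± 686 (n = 3) in WT. Within flow cell A, with 1 KO and 2 WT libraries, the members' median was 0.09, and within flow cell B, with 3 KO and 1 WT, it was -0.05.

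The lowest p belonged to the checkpoint gene Mad2l1, whose product inhibits Cdc20. It was measured at 52.2, 41.1 and 34.4 CPM in WT and 59.5, 48.1, 63.8 and 70.1 in KO, with 1 KO library inside the WT range (0.59 ± 0.20 (adjusted p = 0.273)). Ube2c followed, at 133, 155 and 129 CPM in WT and 172, 161, 185 and 189.9 in KO without overlap (0.37 ± 0.15 (adjusted p = 0.375)). A separation upward was seen in 2 members (4.76%), Ube2c and Racgap1, against 6.12% of all genes, and a separation downward in Kif20a alone, against 5.52%. Aurkb had the highest estimate and the widest interval, -0.05 to 1.63, from 32.7, 21.7 and 9.39 CPM in WT and 30.2, 17.0, 23.0 and 42.3 in KO (0.79 ± 0.39 (adjusted p = 0.558)). Its group means were 21.3 CPM in WT and 28.1 in KO, and the estimate also carries the flow cell term. In flow cell B the KO libraries were set against WT 3 alone (9.39 CPM). In flow cell A, KO 1 (30.2) lay between WT 1 and WT 2. Kif20b had the lowest, from 126, 85.8 and 167 and 127, 45.5, 75.9 and 98.5 CPM (-0.51 ± 0.29 (adjusted p = 0.627)).

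By role in CFU-E, all 5 cyclins and entry kinases had positive estimates, from 0.11 (Ccnb2) to 0.22 (Plk1). Positive estimates were held by 2 of 8 central spindle genes and 2 of 7 condensin and chromosome genes, with medians of -0.09 and -0.15. Of the condensin genes Smc2 was lowest, at 728, 564 and 841 CPM in WT and 696, 431, 550.0 and 603 in KO (-0.30 ± 0.19 (adjusted p = 0.666)). Of the 8 genes called between the WT populations, 6 had overlapping KO and WT levels in CFU-E. Separase (Espl1), for example, was at 55.3, 50.3, 48.6 and 56.2 CPM in KO. Ube2c and Racgap1 did not overlap and stood higher in KO, a separation found in 6.12% of all genes (5.52% downward). The 8 were chosen with the same CFU-E WT libraries, where Ube2c and Racgap1 were low, so this count is no separate result. Spearman's rho of the members' estimates with GC content was 0.44 and with length -0.52 here, against -0.0021 and -0.09 over all genes. With GC and length offsets the members' values were 0.44 and -0.45.

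One gene of the wider mitotic list passed in CFU-E. Cdc25b, the phosphatase that activates Cdk1 at entry into mitosis, was at 53.7, 51.8 and 63.8 CPM in WT and 142, 149.7, 139 and 117 in KO, all KO libraries above all WT (1.26 ± 0.16 (adjusted p = 0.000925)). Without CFU-E KO 1 it lost its call (adjusted p = 0.0520). It was 1 of 78 tested in that list (1.28%), near the 1.06% called among all genes tested. Megakaryocyte markers moved in the same libraries: all 7 had higher estimates in KO, 4 of them called, and they summed to 430 to 926 CPM in KO against 112 to 255 in WT, with none at 0. Their part in the Cdc25b difference was not tested. The same list was called 0 of 77 times in GMP, where 1.45% of all genes were called.

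Whether the KO effect differed between the 2 populations was tested as an interaction over the 14 GMP and CFU-E libraries with a flow cell term. The count was 0 of 42 by edgeR's quasi-likelihood test and 0 by DESeq2, against 0.445% of 11006 genes, and 4 members (9.52%) against 13.6% had an unadjusted p under 0.05. Those were Aurka (0.86 ± 0.31 (adjusted p = 0.261)) and Plk1 (0.89 ± 0.34 (adjusted p = 0.285)), with a higher KO effect in CFU-E, and Kif20b (-1.15 ± 0.49 (adjusted p = 0.313)) and Kif20a (-0.88 ± 0.42 (adjusted p = 0.364)), with a lower one. Kif20b passed when no filter on low counts was applied (-1.16 ± 0.32, adjusted p = 0.0271). The members' median was -0.01 against 0.09 over all genes, and 0.14 without GMP WT 3. The interval of the difference lay within 2-fold in 16 members as counted and in 29 with GC and length offsets, and in the other 26 as counted it also holds differences larger than 2-fold. Across the members rho of the interaction with GC content was 0.63, against 0.28 over all genes. The wider list had 1 of 79 called, Cdc25b (1.48 ± 0.29 (adjusted p = 0.0202)). That call was lost within flow cell A, where the CFU-E arm has 1 KO library that is assumed to vary like the others (adjusted p = 0.280), and without GMP WT 2 (0.0635), GMP WT 3 (0.0510), any 1 CFU-E WT library (0.0560 to 0.231) or CFU-E KO 1 (0.158), while the log2 difference stayed between 1.30 and 1.57 in these fits.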

How the data were processed

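RNA-seq counts per gene, as whole numbers with no normalization, are what the authors deposited. Per the submitters' processing notes, STAR 2.4, HTSeq 0.6.1 and DESeq2 were used with genome build mm9. Neither annotation nor strand setting is given in those notes, which leaves overlapping and antisense genes uncertain. Counts were tested with edgeR 4.0.16 (R 4.3.3): filterByExpr (minimum count 10, minimum total 15), TMM, quasi-likelihood F tests, and Benjamini-Hochberg adjustment over all tested genes, with calls at an adjusted p under 0.05. CFU-E KO against WT and the interaction had the flow cell as a term. Flow cell A, named in the descriptions, holds all GMP libraries, CFU-E KO 1, WT 1 and WT 2, and B the other CFU-E libraries. Printed CPM were scaled by TMM over the 7 LSK or the 14 GMP and CFU-E libraries. Errors are SE for fold changes and SD for levels. Within every group, replicates differed beyond sampling noise (chi-square per degree of freedom at least 4.03). Alternatives were DESeq2 1.42.0, its size factors, no filter, a filter of 10 CPM, a replicate block, other flow cell settings, each library left out and, added after seeing the data, lowess offsets for GC content and length. Models were tested on simulated data. The members and gene lists were chosen with earlier results of these data known. Named were every called member, the highest and lowest estimate in each role (a selection is printed), Stag2, and 4 genes per direction of the other lists.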

Additional observations from a re-analysis of the deposited data

Results flagged for a closer look

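Of 135 sets of 4 libraries compared for 1 value standing apart, 11 held such a value. Chance alone gives about 5% for a single set. The sets share libraries and the summed level holds the single genes, so they are not independent and that share is no reference for the count. In GMP the library KO 4 stood above the other 3 KO libraries for Cenpe (314 CPM, others 175 to 182), Cenpf (333, others 177 to 202), Tpx2 (246, others 150.0 to 160.3), Kif20b (345, others 155 to 165) and Anln (56.7, others 36.7 to 38.1). The summed level of the 42 genes was 9569 CPM in that library, against 7609 to 7867 in the other 3. In LSK the library WT 1 stood above the other 3 WT libraries for Ccnb1 (226 CPM, others 138 to 145), Ttk (64.5, others 41.7 to 44.5), Cenpa (166, others 125 to 131) and Kif11 (273, others 162 to 176). In CFU-E the library KO 2 stood below for Bub1b (95.1 CPM, others 137 to 141). The KO effect on Cdc25b differed between CFU-E and GMP, by a log2 difference of 1.48, in the interaction test.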

How the results depend on the processing

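In the KO comparisons and the interaction the count of members called was 0 in each direction under every alternative, except that without a filter on low counts 1 member, Kif20b, was called lower in the interaction. That setting gave 1 member lower between the WT populations in place of 3. With 1 library left out at a time, the WT comparison called 3 to 8 members higher and 1 to 5 lower, the GMP median ranged from -0.065 to 0.25 and the interaction median from -0.13 to 0.14. Whether replicate numbers pair the libraries is not stated. Deviations of same-numbered libraries correlated at -0.20 to 0.27 and those of differently numbered ones at -0.43 to 0.27. With so few libraries these values cannot decide it. With a replicate block the WT comparison called 6 members higher and 2 lower (median 0.02), and no member was called in LSK (median 0.09), GMP (0.03), CFU-E or the interaction (-0.07). With that block the adjusted p was 0.0718 for Ube2c between the WT populations and, for Stag2, 0.220 in LSK and 0.0804 in CFU-E. GC and length offsets gave 6 higher and 4 lower, with Ncapg and Ect2 called in addition. GMP KO libraries were the shallowest. Their replicates also differed beyond sampling noise. The members' median SE in GMP KO against WT was 0.25 as counted and 0.19 with the offsets, which were fitted to these same libraries. The part of depth in this SE was not tested.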
